A study of Mus musculus with 16 samples.

Results

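Ubiquitylated H2AK119 (H2AK119ub1) was set against acetylated H3K27 (H3K27ac) at gene starts in endosteal mesenchymal stromal cells, the stromal cells that line the inner surface of bone, from mice with intact Bap1. The 4 libraries titled Bap1 WT H2AK119-ub1 and Bap1 WT H3K27-ac, 2 for each mark, were taken by title from the 16 chromatin immunoprecipitation sequencing (ChIP-seq) libraries of the series. All autosomal genes of the count table were used, 3789 of 3925. The mice were C57BL/6J animals of genotype Bap1fl/fl, labelled as wild type, so both marks came from a floxed line. The other libraries cover H3K27me3 and H3K4me3 in the same WT cells and the 4 marks in Bap1 cKO cells. The question is whether H2A ubiquitylation is excluded from acetylated promoters in normal endosteal stromal cells.

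H2AK119ub1 is placed by the RING1 ligases of Polycomb repressive complex 1 and removed by BAP1, a nuclear deubiquitylase. It usually accompanies H3K27me3 at CpG-rich promoters of silent developmental genes. H3K27ac is placed by the acetyltransferases p300 and CBP, marks active promoters and enhancers, and cannot share a lysine with H3K27me3. H2AK119ub1 sits on another histone, so it does not compete with H3K27ac for a lysine.

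Each gene was measured in a 10 kb window centred on its start, and a promoter is the central 4 kb. Levels are CPM, counts scaled to a common library total, of a library's autosomal window counts, summed over that 4 kb, so every promoter has the same length. A promoter at the median of all 3789 had 107.3 CPM of H2AK119ub1 and 126.5 CPM of H3K27ac. The table lists only genes that the authors marked UP (1849 here) or DOWN (1940 here), not the whole genome. A promoter level cannot be split into signal and background, since input libraries were not used here. CPM is a share of each antibody's own counts, so a promoter "higher" in H2AK119ub1 holds a larger share of the H2AK119ub1 counts than of the H3K27ac counts.

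The antibody field disagrees with the titles for the mark on the H3K27ac side. Libraries titled H3K27-ac carry an anti-trimethyl-H3K4 antibody in that field, and libraries titled H3K4-me3 carry the anti-acetyl-H3K27 antibody. The titles were followed, and the results that could turn on this are given also with the libraries titled H3K4-me3. Summed autosomal counts were 2095396 and 2028358 in the H2AK119ub1 libraries and 2953022 and 3777200 in the H3K27ac libraries, and a read is counted in about 3 neighbouring bins. Of 18 stromal marker genes, 13 were in the table and 10 of these lay above the median H3K27ac, with Fn1 and Col1a2 highest. Of 14 blood markers only Lyz2 was in the table, at 13.2 CPM of H3K27ac, and none of 12 endothelial markers was. A longer list of blood cell genes had 7 in the table, from Lyz2 up to Cd14 at 527.2 CPM, with a median H3K27ac of 125.4 CPM, so low blood signal is not shown. The labels do not say whether the 2 libraries of a mark came from separate animals, so p-values describe only how far these libraries vary, and that variation may be technical.

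Promoter sequences are shown for 6 of the promoters described below. Card10 and Fam189a2 are shown because their promoters were high in H2AK119ub1 and low in H3K27ac, Vim and Morrbid because theirs were the reverse, and Pitpnm1 and Twist2 because theirs were high in both marks. They are the first 2 named promoters of each kind that have a sequence in RefSeq and lie outside chromosomes 8 and 18 and apart from other genes' windows. The sequences are the 250 bases before the RefSeq start on GRCm38.p6, read along the gene's strand, with CG dinucleotides in capitals. They cover Card10 (chr15:78803043-78803292, minus strand), Fam189a2 (chr19:24031020-24031269, minus strand), Vim (chr2:13574061-13574310, plus strand), Morrbid (chr2:128429352-128429601, minus strand), Pitpnm1 (chr19:4099748-4099997, plus strand) and Twist2 (chr1:91801211-91801460, plus strand).
Card10: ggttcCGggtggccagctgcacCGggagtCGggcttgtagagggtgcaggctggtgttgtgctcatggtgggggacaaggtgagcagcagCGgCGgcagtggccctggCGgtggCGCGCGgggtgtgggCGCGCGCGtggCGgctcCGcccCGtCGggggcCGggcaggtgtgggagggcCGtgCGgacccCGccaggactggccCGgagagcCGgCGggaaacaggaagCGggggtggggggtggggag
Fam189a2: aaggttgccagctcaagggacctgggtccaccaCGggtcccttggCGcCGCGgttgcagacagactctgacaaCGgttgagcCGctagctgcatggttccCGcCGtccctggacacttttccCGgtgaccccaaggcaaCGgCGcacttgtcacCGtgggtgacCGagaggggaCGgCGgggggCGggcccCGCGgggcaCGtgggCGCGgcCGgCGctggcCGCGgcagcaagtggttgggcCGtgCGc
Vim: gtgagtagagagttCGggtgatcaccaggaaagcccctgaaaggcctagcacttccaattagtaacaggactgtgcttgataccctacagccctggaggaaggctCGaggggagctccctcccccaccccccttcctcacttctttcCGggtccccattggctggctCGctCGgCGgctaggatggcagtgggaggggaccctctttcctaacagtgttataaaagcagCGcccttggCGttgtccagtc
Morrbid: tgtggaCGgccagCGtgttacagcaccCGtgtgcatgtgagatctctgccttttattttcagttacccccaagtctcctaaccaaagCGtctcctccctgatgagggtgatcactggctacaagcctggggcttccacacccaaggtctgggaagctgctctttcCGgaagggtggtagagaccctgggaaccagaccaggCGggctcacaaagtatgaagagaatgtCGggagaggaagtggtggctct
Pitpnm1: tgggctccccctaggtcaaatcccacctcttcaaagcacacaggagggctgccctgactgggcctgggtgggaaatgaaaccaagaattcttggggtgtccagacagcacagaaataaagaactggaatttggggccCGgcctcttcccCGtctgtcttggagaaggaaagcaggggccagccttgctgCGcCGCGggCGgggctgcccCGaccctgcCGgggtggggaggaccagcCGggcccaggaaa
Twist2: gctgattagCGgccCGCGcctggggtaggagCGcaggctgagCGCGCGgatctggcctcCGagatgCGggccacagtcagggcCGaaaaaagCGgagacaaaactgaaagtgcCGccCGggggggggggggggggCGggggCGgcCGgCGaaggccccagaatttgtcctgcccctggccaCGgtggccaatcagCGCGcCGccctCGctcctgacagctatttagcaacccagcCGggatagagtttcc
Card10 holds 25 CG dinucleotides and Fam189a2 27, against 8 in Vim and 7 in Morrbid. Pitpnm1 holds 9 and Twist2 23. With the 50 bases after the start the numbers are 34 in Card10, 38 in Fam189a2, 11 in Vim, 8 in Morrbid, 15 in Pitpnm1 and 25 in Twist2. These pairs do not stand for their kinds: counted the same way, Crispld2 (20) and Efna3 (22), high in H2AK119ub1, lie close to Junb (21) and Nfe2l2 (18), low in it. Among promoters with a sequence, the median was 21 CG in the 158 within the top 25% in H2AK119ub1 and the bottom 25% in H3K27ac, and 22 CG in the 159 of the reverse kind. In the 32851 RefSeq promoter windows of the mouse, which run from 250 bases before to 50 after the start, the median number of CG is 6 and the middle 50% of windows has 2 to 16. GGGCGG on either strand, a motif that itself contains a CG, is in the 300-base windows of Card10, Fam189a2, Pitpnm1 and Twist2. It is not in those of Vim and Morrbid, and it is in 32.7% of all windows. Among the 2492 promoters of the count table with a sequence it is in 65.7%. The 158 and 159 promoters of the opposite kinds hold it in 67.7% and 69.2%, so it does not set these kinds apart. TATAAA on either strand is in the window of Vim and in 12.4% of all windows.

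H2AK119ub1 was higher than H3K27ac at 1304 of the 3759 promoters tested (34.7%) and lower at 1723 (45.8%), by edgeR's quasi-likelihood test with Benjamini-Hochberg adjustment at 0.05. With a difference of at least 2-fold as well, 1000 promoters (26.6%) were higher and 1240 (33.0%) lower. These 2-fold counts turn with the scale and width, to 1378 higher and 710 lower with promoter-count scaling, 493 and 1872 with outer-flank scaling, and 1134 and 500 at 5 kb to each side. The 2 libraries of one mark lay wholly above those of the other at 3369 promoters (89.6%). The median log2 difference, H2AK119ub1 over H3K27ac, was -0.28. Of all calls, 43.1% were higher, but this split moves with the scale, to 58.3% when libraries are scaled on promoter counts, 26.3% when scaled on the outer 1 kb of each side, 49.4% with TMM factors and 49.9% with DESeq2. With the libraries titled H3K4-me3 in place of those titled H3K27-ac, 1199 promoters of 3768 (31.8%) were higher and 2129 (56.5%) lower.

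The promoters with the firmest excess of H2AK119ub1 were those of Crispld2, Card10, Fam189a2, Ank1, Igf2bp1, Plppr3, Hapln4 and Efna3. Crispld2 encodes a secreted protein that binds lipopolysaccharide, and its promoter (chr8:119990438-119994437, GRCm38, plus strand) had 239.6 and 244.5 CPM of H2AK119ub1 against 39.96 and 39.2 CPM of H3K27ac. Card10, a scaffold protein of NF-kappaB signalling, had 246.3 and 216.4 CPM of H2AK119ub1 against 38.6 and 29.9 CPM of H3K27ac. Igf2bp1, a fetal mRNA-binding protein, had 282.5 and 262.3 CPM of H2AK119ub1 against 37.6 and 52.4 CPM of H3K27ac. Only promoters where the libraries of the marks did not overlap could be named here, so that trait of these 8 is not a result. Their log2 differences ran from 2.45 at Ank1, the ankyrin of the red cell membrane skeleton, to 2.76 ± 0.22 (SE) at Card10 (edgeR adjusted p = 1.92e-08). Plppr3, Hapln4 and Efna3 are known from neurons: Hapln4 is a link protein of the matrix around them and Efna3 an ephrin ligand of axon guidance. All 8 also carried much H3K27me3, from 326.9 CPM at Plppr3 to 914.3 CPM at Igf2bp1, against a median of 79.6 CPM over all promoters.

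The firmest deficits of H2AK119ub1 at promoters apart from other genes' windows lay at Neat1, Vim, Morrbid, Junb, Nfe2l2 and Tsc22d2. Neat1, the long noncoding RNA that builds nuclear paraspeckles (chr19:5843479-5847478, minus strand), had 38.7 and 45.4 CPM of H2AK119ub1 against 1173 and 1324 CPM of H3K27ac, a log2 difference of -4.89 ± 0.18 (SE; edgeR adjusted p = 2.41e-11). Vim, the intermediate filament of mesenchymal cells, had 72.1 and 72.5 CPM of H2AK119ub1 against 976 and 916.6 CPM of H3K27ac. Junb, a subunit of the AP-1 transcription factor, had 99.7 and 73.5 CPM of H2AK119ub1 against 1033 and 1120 CPM of H3K27ac. At all 6 the H3K27ac libraries lay above both H2AK119ub1 libraries, which was a condition for naming them. Their H2AK119ub1 lay between the 3.95 percentile of all promoters at Neat1 and the 35.1 percentile at Tsc22d2. Nfe2l2, which encodes the oxidative stress regulator NRF2, stood at the 26.5 percentile. The test that chose these promoters used the same H2AK119ub1 values, so their low level is not a separate result.

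**Figure D1:**
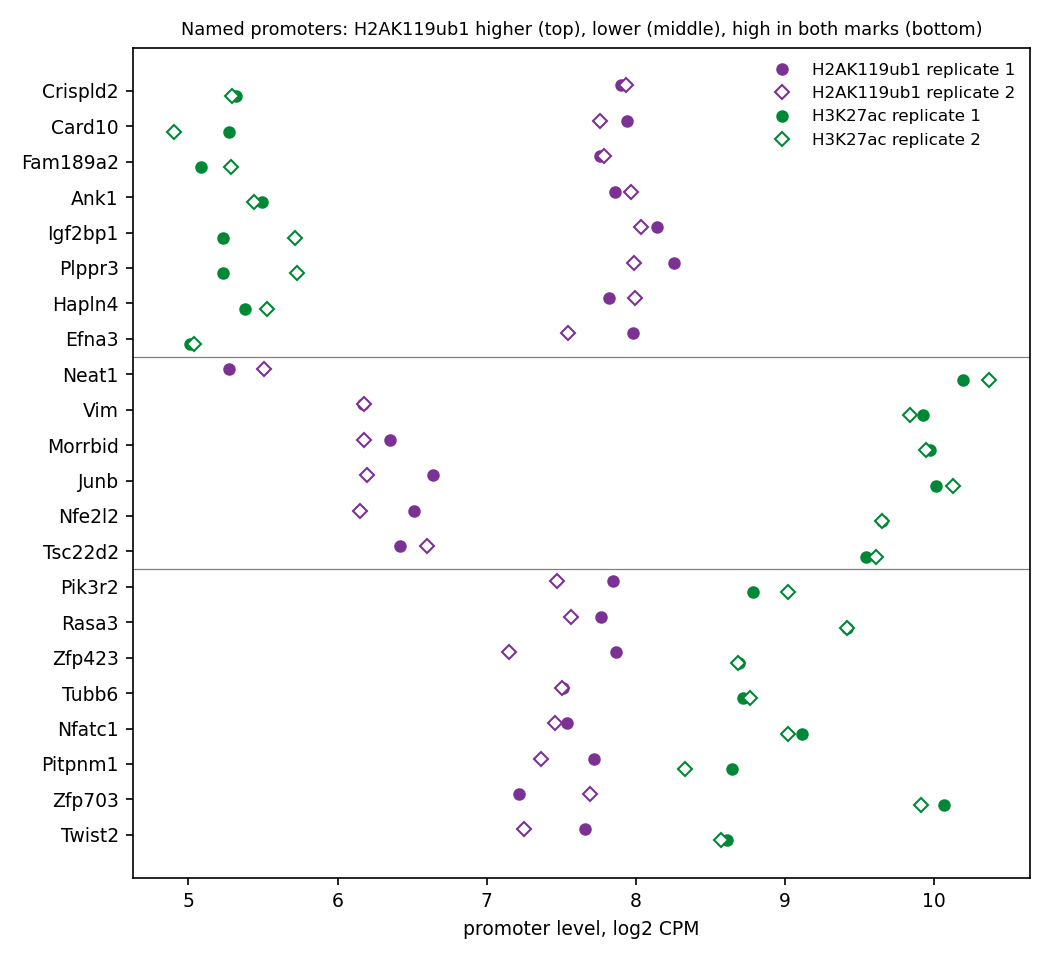
Promoter level on a log2 CPM axis for the 22 promoters named as firmly higher in H2AK119ub1 (top), firmly lower (middle) and high in both marks (bottom). Each symbol is 1 library, H2AK119ub1 in purple and H3K27ac in green. The H2AK119ub1 symbols lie right of the H3K27ac symbols in the top 8 rows and left of them in the other 14. The naming rule required this separation in the top and middle rows. In the bottom rows H2AK119ub1 lies nearer to its level in the top rows than in the middle ones. The bottom rows were chosen for high ranks in both marks, so this high level is not a separate result. Nor is their order, since H3K27ac at such ranks lay above the highest mean H2AK119ub1 of any promoter, 290.0 CPM.

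Some promoters were high in both marks. The 8 with the highest smaller rank were Pik3r2, Rasa3, Zfp423, Tubb6, Nfatc1, Pitpnm1, Zfp703 and Twist2. Rasa3, a GTPase-activating protein of Ras (chr8:13675604-13679603, minus strand), had 217.6 and 189.3 CPM of H2AK119ub1, at the 95.6 percentile, and 684.0 and 685.4 CPM of H3K27ac, at the 99.1 percentile. Zfp423, a transcription factor of preadipocytes, had 233.8 and 142.0 CPM of H2AK119ub1 and 413.1 and 412.7 CPM of H3K27ac, so its H2AK119ub1 libraries stood well apart. Twist2, a mesenchymal transcription factor, had 201.9 and 152.3 CPM of H2AK119ub1 and 391.1 and 381.0 CPM of H3K27ac. Nfatc1, a calcium-regulated factor needed for osteoclasts, had 186.1 and 176.0 CPM of H2AK119ub1 and 555.4 and 519.4 CPM of H3K27ac. H3K27me3 at these 8 ran from 41.9 CPM at Zfp703 to 180.3 CPM at Zfp423, below every one of the 8 promoters with the firmest excess of H2AK119ub1. Pik3r2, Rasa3, Zfp423 and Zfp703, 4 of the 8, lie on chromosome 8, whose promoters had the highest median H2AK119ub1 of all autosomes (155.1 CPM).

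Across the 3789 promoters the ranks of the marks had almost no steady trend. H2AK119ub1 still differed between levels of H3K27ac, as described below. Spearman's rho between H2AK119ub1 and H3K27ac was -0.05, and between -0.07 and -0.03 for the 4 pairs of single libraries. Promoters are not independent replicates, and both marks share the window, its region and its mappability, so these are descriptions. The H2AK119ub1 libraries had a rho of 0.85 with each other and the H3K27ac libraries 0.98. H2AK119ub1 followed H3K27me3 (0.77), and H3K27ac followed H3K4me3 (0.87). Pearson's r of log2(CPM + 1) between the marks had the other sign, 0.30, but 69 promoters (1.82%) had under 20 CPM in both, and without them r was -0.05 and rho -0.11. With the libraries titled H3K4-me3, rho was 0.06.

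H2AK119ub1 spanned a narrow range. Over the middle 80% of promoters it ran from 57.1 to 177.7 CPM, 3.11-fold, against 32.3 to 355.4 CPM, 10.99-fold, for H3K27ac. Promoters were ranked by H3K27ac and cut into 10 classes of equal size, from class 1 (least acetylated) to class 10. The median H2AK119ub1 was 80.3 CPM in class 1, was highest in classes 2 to 4 at 124.4 to 129.6 CPM, and lay between 98.7 and 106.6 CPM from class 5 on. Class 10, at a median H3K27ac of 448.9 CPM, had 105.8 CPM of H2AK119ub1, close to the median of all promoters. The ratio of class 10 to class 1 was 1.41 and 1.25 in the 2 H2AK119ub1 libraries, and that of class 10 to class 3 was 0.831 and 0.797. Class 1 was also low in its outer flanks, at a median of 35.1 CPM of H2AK119ub1 against 53.0 CPM in class 10. Set against those flanks the order turned, with a median log2 of promoter over flanks of 0.22 in class 1 and -0.03 in class 10. The share of promoters within the top 25% in H2AK119ub1 was 8.44% in class 1, 43.8% in class 3 and 16.1% in class 10. Seen from the other mark, the top class of 10 by H2AK119ub1 had a median H3K27ac of 70.9 CPM, and 8.47% of it lay within the top 25% in H3K27ac.

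Of the 947 promoters in the top 25% in H2AK119ub1, 144 (15.2%) were also in the top 25% in H3K27ac. A further 266 (28.1%) were in the bottom 25% in H3K27ac. Those 266 had a median of 322.2 CPM of H3K27me3 and 39.8 CPM of H3K4me3. The 144 high in both had 91.9 CPM of H3K27me3 and 466.1 CPM of H3K4me3. Of the 144, 27.1% were marked UP by the authors, against 71.1% of the 266. Of all 3789 promoters, 1849 were marked UP. This split was not particular to high H2AK119ub1. In the next 25% by H2AK119ub1 the UP shares were 24.1% in the top and 67.7% in the bottom 25% in H3K27ac. They were 35.9% and 63.3% in the 25% after that, and 60.8% and 58.6% in the lowest 25% by H2AK119ub1. The 2 H2AK119ub1 libraries shared 710 promoters (74.97%) of their top 25%, and the 2 H3K27ac libraries 850 (89.8%).

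Levels differed between chromosomes, and in the same way for all marks. The outer 1 kb on each side of the windows, away from the promoter, had a median of 32.3 CPM of H2AK119ub1 on chromosome 7 and of 67.8 CPM on chromosome 8. In H3K27ac the same flanks had medians of 14.1 to 31.7 CPM over the 19 autosomes. The flank medians of H2AK119ub1 went with those of H3K27ac (Spearman's rho 0.97), H3K4me3 (0.97) and H3K27me3 (0.94) over the 19 autosomes, which share libraries and cells. Promoter medians of H2AK119ub1 ran from 68.5 CPM on chromosome 7 to 155.1 CPM on chromosome 8. On chromosome 8, 63.5% of the promoters were in the top 25% in H2AK119ub1, on chromosome 7 0.306%. The source of these differences was not tested.

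Each promoter was then divided by the relative flank level of its chromosome in the same library, a step added after the data were seen. On that scale the marks were opposed in rank. Spearman's rho was -0.27, and -0.28 to -0.22 over the 4 library pairs. Pearson's r of log2(CPM + 1) kept the other sign, at 0.25. Within single chromosomes rho was below 0 on 17 of 19, with a median of -0.25 and a range from -0.47 on chromosome 4 to 0.06 on chromosome 18. With the flanks of the 20 nearest genes in place of the chromosome's, rho was -0.27. On the chromosome scale, the median H2AK119ub1 was 134.4 CPM in class 3 by H3K27ac and 88.4 CPM in class 10, and the share in the top 25% in H2AK119ub1 was 51.5% in class 3 and 3.97% in class 10. Promoters high in both marks numbered 67 (7.07%) and those high in H2AK119ub1 and in the bottom 25% in H3K27ac 382 (40.3%). Of the 8 promoters named as high in both, Zfp423 moved to the 70.1 percentile in H2AK119ub1 and Zfp703 to the 64.0, while Twist2 stood at the 92.9 and Tubb6, a tubulin, at the 87.6. With the libraries titled H3K4-me3, rho on this scale was -0.13.

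**Figure D2:**
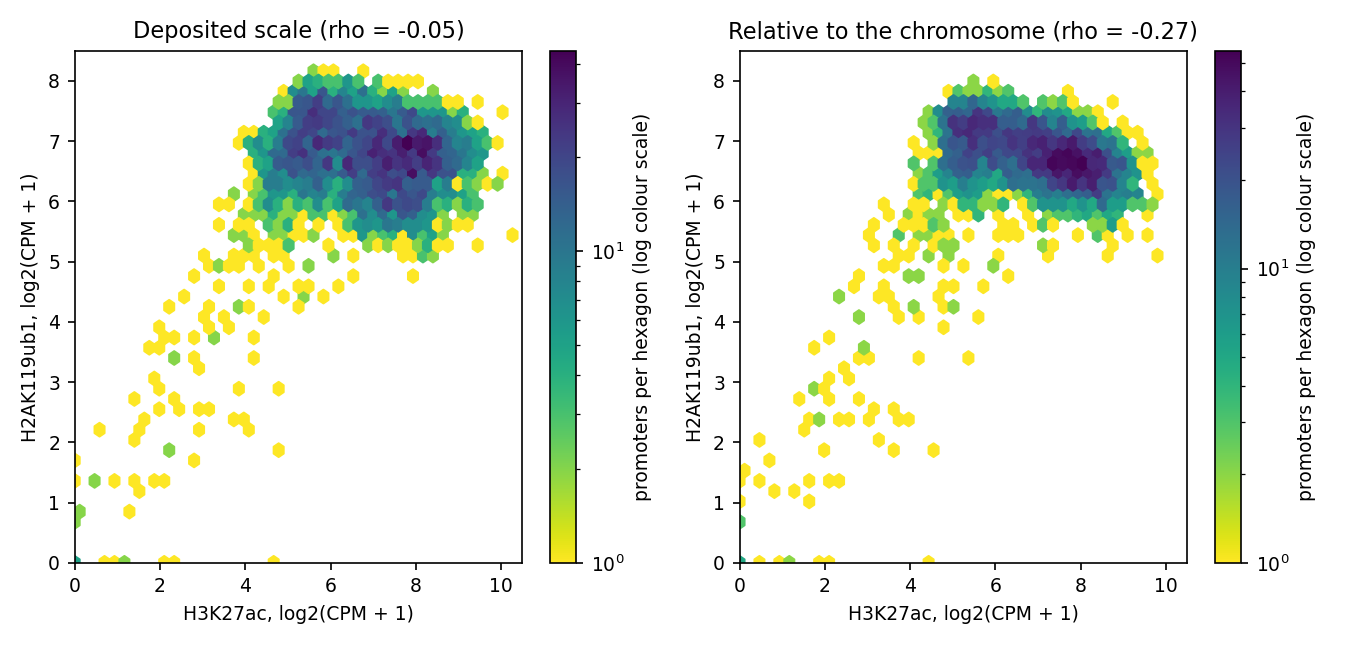
H2AK119ub1 against H3K27ac in 3789 autosomal promoters, log2(CPM + 1), mean of 2 libraries, as deposited (left) and divided by the relative flank level of the chromosome (right). Colour counts promoters per hexagon on a log scale. Ranks had almost no trend on the left (rho = -0.05) and were opposed once levels are relative to the chromosome (rho = -0.27). Pearson's r of the plotted log2 values was above 0 in both panels, 0.30 on the left and 0.25 on the right.

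**Figure D3:**
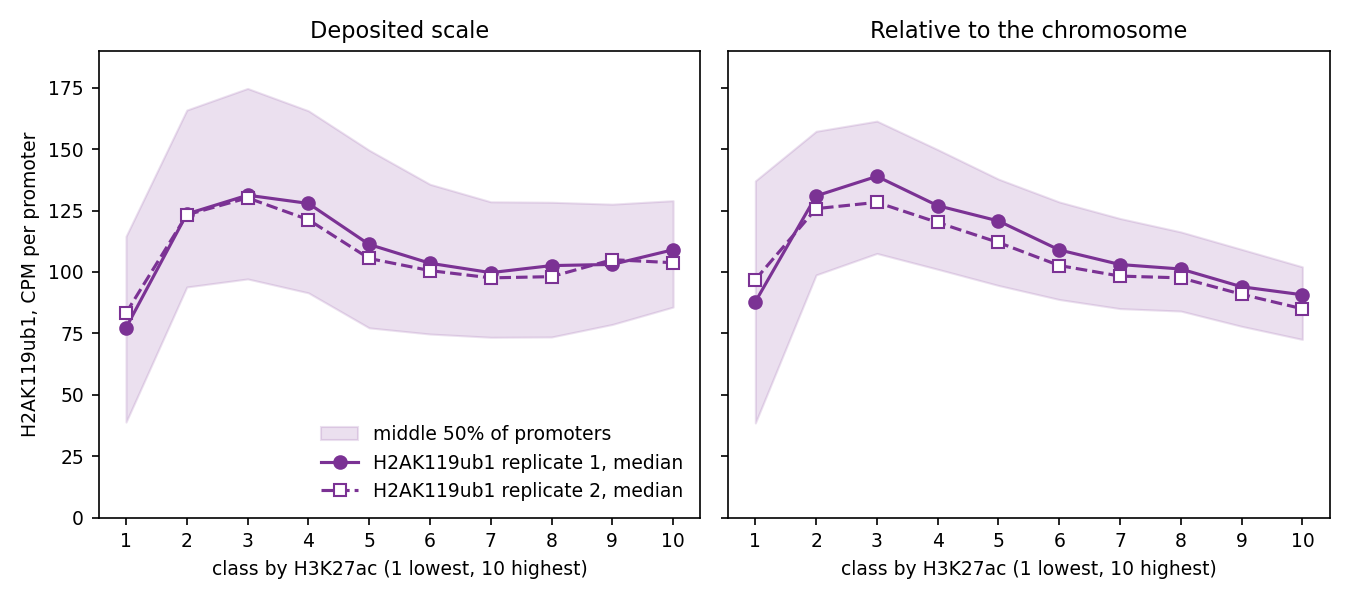
Median H2AK119ub1 (CPM per promoter) in each library by H3K27ac class, on the deposited scale (left) and relative to the chromosome (right). The shaded band holds the middle 50% of promoters. Class 1 lies below classes 2 to 4, which hold the highest values on both scales, and only on the right does the median go on down to 88.4 CPM in class 10.

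**Figure D4:**
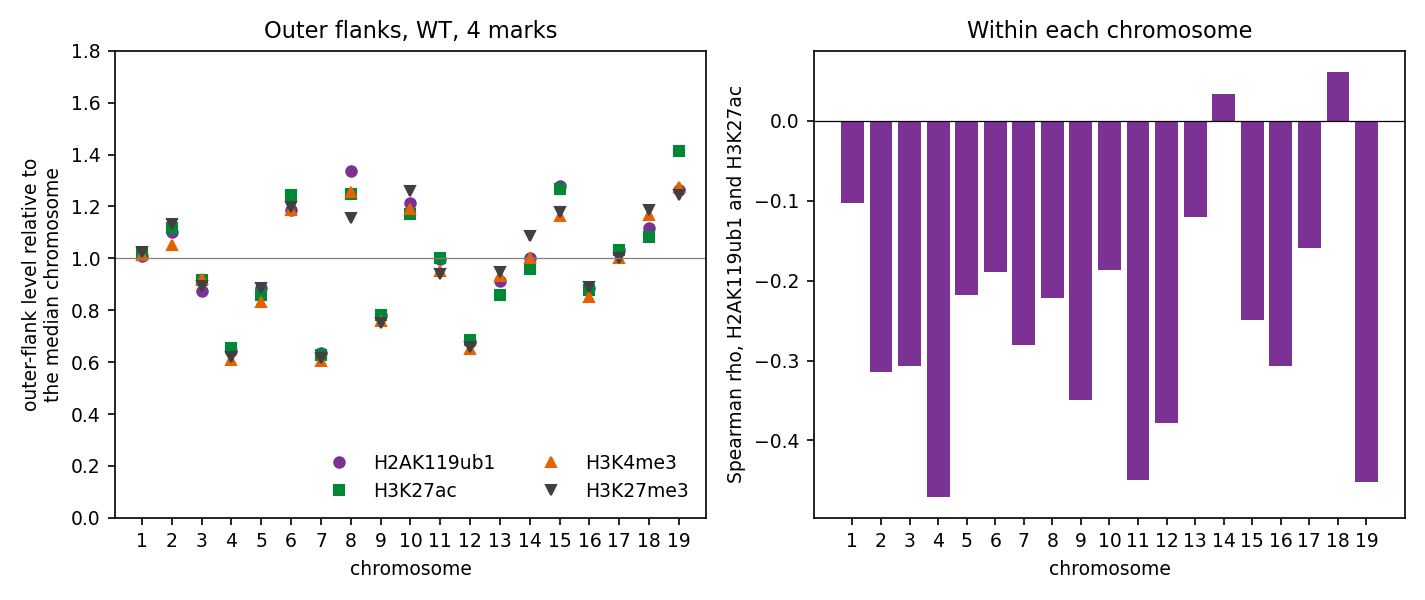
Left, median level of the outer flanks of each autosome in the 4 marks, divided by the median autosome of that mark. Right, Spearman's rho between H2AK119ub1 and H3K27ac within each autosome. The 4 marks rise and fall together from chromosome to chromosome, and rho is below 0 on 17 of 19.

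The CpG content of the promoter went with the relation. RefSeq held a promoter sequence for 2492 promoters (65.8%), so a check over all promoters is void and what follows describes only these. CpG-rich promoters, with an observed over expected CpG ratio of at least 0.6 and at least 55% GC, numbered 1490 and had a rho of -0.24, and of -0.56 relative to the chromosome. CpG-poor promoters, with a ratio under 0.4, numbered 446 and had a rho of 0.17, and of 0.02 relative to the chromosome. In the CpG-rich promoters the median H2AK119ub1 was 134.5, 115.3, 101.5, 100.3 and 103.0 CPM from the lowest to the highest of 5 equal classes in H3K27ac. Their H3K27me3 was 219.1 CPM in the lowest class and 69.0 CPM in the highest. In the CpG-poor promoters H2AK119ub1 was 71.4, 110.9, 121.9, 94.2 and 106.5 CPM over the same order of classes, so it did not rise steadily. The difference between the classes was not tested.

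Around the start the marks had different shapes. H2AK119ub1 had no peak at the start: 7.69% ± 0.313 of its counts lay within 400 bp of the start, where H3K27ac had 21.6% ± 0.871 (SD, n = 2 each). That stretch makes up 8% of the window. Within 2 kb, 40% of the window, the shares were 42.5% ± 1.29 for H2AK119ub1 and 63.2% ± 0.418 for H3K27ac. For both distances the libraries of the marks did not overlap, but 2 against 2 libraries cannot give less than p = 0.333 in an exact two-sided permutation test, the value found. Along the window the mean H2AK119ub1 of all promoters was not flat, at 1.24 CPM per 50 bp in the 0.5 kb before the start. It was 1.54 from 0.5 to 1 kb after the start and 1.23 at 4 to 5 kb to each side. Against its own outer flanks, the promoter was enriched by a median log2 of 0.16 in H2AK119ub1 and 1.35 in H3K27ac. Above 0 were 65.2% and 85.2% of promoters. These local enrichments had a rho of -0.09 between the marks, but the H2AK119ub1 libraries had only 0.37 with each other.

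At acetylated promoters H2AK119ub1 dipped at the start and stayed level around it. In class 10 by H3K27ac it was 1.03 ± 0.08 CPM per 50 bp in the 0.5 kb before the start, 1.49 ± 0.05 from 0.5 to 1 kb after it and 1.35 ± 0.04 at 4 to 5 kb to each side (SD, n = 2 libraries). H3K27ac there was 8.01 ± 0.27, 8.40 ± 0.03 and 1.41 ± 0.06 CPM per 50 bp. The level before the start over that at 1 to 2 kb was 0.759 and 0.707 in the H2AK119ub1 libraries and 1.92 and 2.11 in the H3K27ac libraries. In classes 6 to 9 the ratio in the H2AK119ub1 libraries lay between 0.747 and 0.802, about as in class 10, and in class 1 it was 1.07 and 1.07, with no dip. H3K27me3 had a like dip in class 10, with ratios of 0.611 and 0.668, so the dip was not particular to H2AK119ub1. Whether fewer nucleosomes or fewer marked ones lie at the start cannot be told apart in these libraries. Over the whole 4 kb, the median local log2 enrichment of H2AK119ub1 was 0.32 in class 3 and -0.03 in class 10, where the promoter was at the level of its own flanks.

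**Figure D5:**
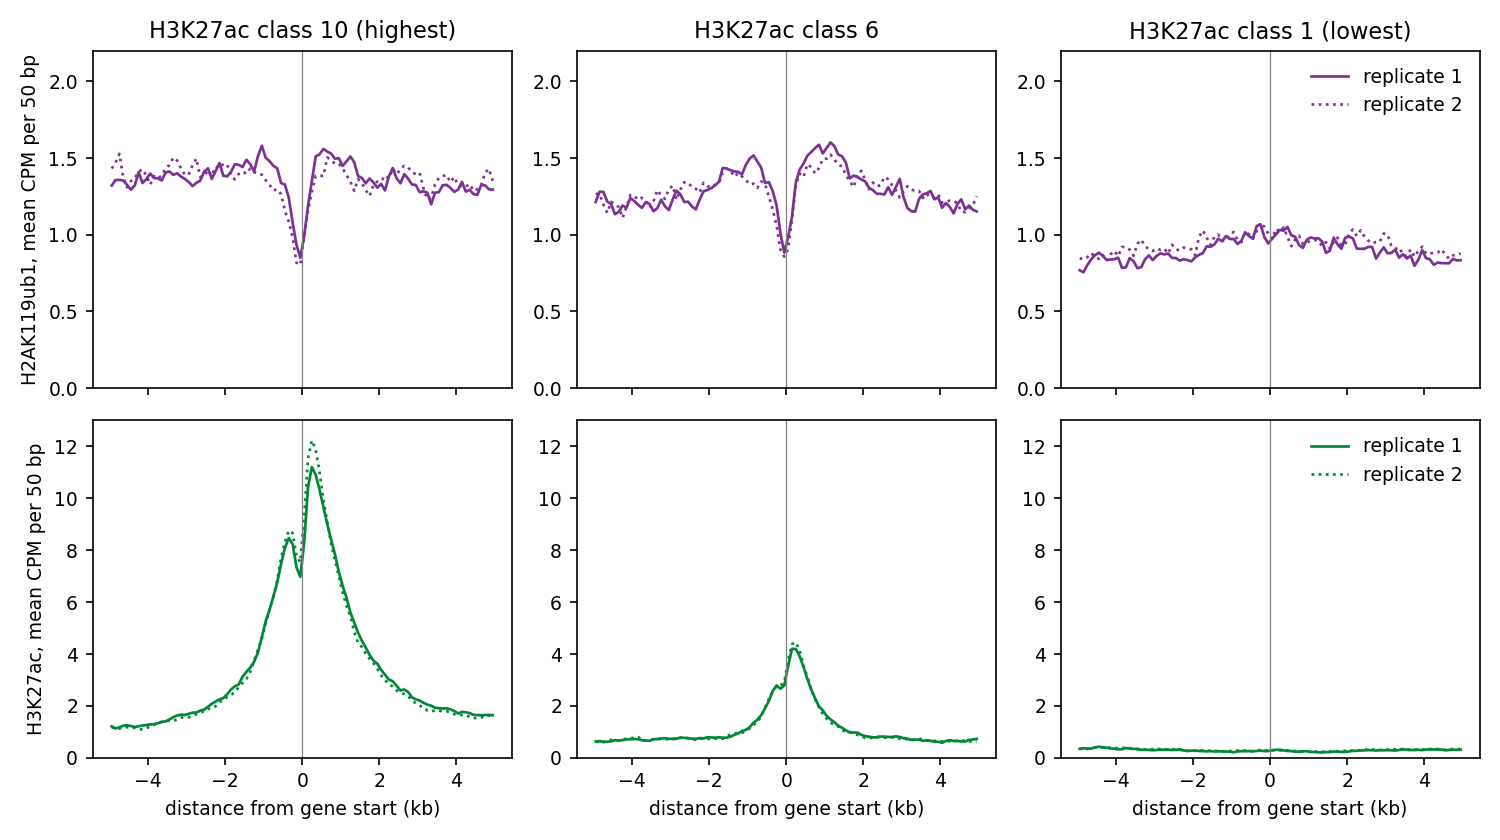
Mean CPM per 50 bp bin along the 10 kb window for promoters of classes 10, 6 and 1 by H3K27ac, H2AK119ub1 above and H3K27ac below, 1 line per library. H2AK119ub1 stays near 1.4 CPM around the most acetylated starts with a notch at the start itself, while H3K27ac peaks on both sides of it, and class 1 has neither.

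Gene lists are described by their calls beside the 34.7% higher and 45.8% lower over all promoters, with no test of a list. Another scale moves every log2 difference alike, with medians over all promoters from -0.99 (outer flanks) to 0.28 (promoter counts), so a list is read against that median. Neuronal and channel genes were mostly called higher in H2AK119ub1, and their H3K27ac was low. Of 50 synaptic and axon guidance genes, 38 were higher in H2AK119ub1 and 3 lower, with a median log2 difference of 1.26 against -0.28 over all promoters. Their median H3K27ac was 53.0 CPM against 126.5 CPM over all promoters, and their median H2AK119ub1 133.1 CPM against 107.3 CPM. Of the 50, 36 had H2AK119ub1 above the median of all promoters, and 9 had H3K27ac above it. Efna3 had 253.4 and 186.9 CPM of H2AK119ub1 against 32.2 and 32.8 CPM of H3K27ac, and Sema3f, a secreted semaphorin that repels axons, 160.4 and 148.9 CPM against 27.8 and 22.8 CPM. Of 29 ion channel genes, 21 were higher and 2 lower, with a median of 1.56. Their medians were 128.3 CPM of H2AK119ub1 and 55.3 CPM of H3K27ac. H2AK119ub1 was above the median of all promoters at 21 of them, and H3K27ac at 4. Kcnk4, a potassium channel, had 243.9 and 269.2 CPM of H2AK119ub1 against 42.3 and 60.4 CPM of H3K27ac, whereas Clcn4, a chloride and proton exchanger, was lower at 30.1 and 23.7 CPM against 222.1 and 244.4 CPM.

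Developmental transcription factors were mixed. Of 26 measured from a list of Polycomb targets, 17 were higher in H2AK119ub1 and 7 lower, with a median log2 difference of 1.179 and a median H3K27me3 of 239.2 CPM. Pitx1, a hindlimb factor, had 173.2 and 179.0 CPM of H2AK119ub1 against 23.4 and 28.3 CPM of H3K27ac. Foxc1, a forkhead factor of the bone marrow niche, had 84.0 and 53.7 CPM against 567.6 and 557.3 CPM, and was lower. All 5 Hox genes in the table had H2AK119ub1 above the median of all promoters, and 4 of them, all of the Hoxc cluster, also had H3K27ac above it. Hoxc6 was lower with 110.7 and 109.4 CPM of H2AK119ub1 against 598.4 and 573.2 CPM of H3K27ac, as was Hoxc10 with 152.2 and 162.2 CPM against 590.2 and 550.7 CPM. Hoxc13 was also lower, Hoxa2 was higher, and Hoxc11, at 191.8 and 209.0 CPM against 212.7 and 235.4 CPM, was not called (edgeR adjusted p = 0.382). The other three Hox genes were named after their values were seen, and the 4 Hoxc genes lie on chromosome 15, whose promoter median of H2AK119ub1 was 143.4 CPM.

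Genes of the stroma and of bone stood on both sides. Of 25 niche genes, 11 were lower in H2AK119ub1 and 8 higher. Cd44, the hyaluronan receptor, had 78.3 and 63.1 CPM of H2AK119ub1 against 661.0 and 528.2 CPM of H3K27ac. Cxcl12, the chemokine that retains blood stem and lymphoid progenitor cells, was at the 98.3 percentile in H2AK119ub1 with 280.6 and 173.0 CPM, against 228.6 and 167.1 CPM of H3K27ac at the 67.9 percentile. Kitl, the ligand of the receptor Kit, had 173.7 and 149.4 CPM of H2AK119ub1 against 169.0 and 158.3 CPM of H3K27ac. The libraries of the marks overlapped at Cxcl12 and Kitl, neither was called (edgeR adjusted p = 0.405 and 0.931), and both were named after their values were seen. Cxcl12 lies on chromosome 6 and Kitl on chromosome 10, whose promoter medians of H2AK119ub1 were high at 136.9 and 136.8 CPM. Of 12 osteoblast genes, 2 were higher and 5 lower: Col1a2, a chain of type I collagen, had 93.5 and 104.5 CPM of H2AK119ub1 against 565.5 and 570.0 CPM of H3K27ac, and Runx2, the master factor of osteoblasts, 72.5 and 107.97 CPM against 385.0 and 372.5 CPM. Of 56 matrix genes tested, 19 were higher and 27 lower, with Thbs1 (87.3 and 75.4 CPM against 643.1 and 612.6 CPM) and Fn1 (105.9 and 106.0 CPM against 651.5 and 632.5 CPM), which encode secreted adhesive glycoproteins, among the lower.

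Genes of basic cell functions were mostly called lower in H2AK119ub1. All 16 ribosome and mitochondrial protein genes were lower in H2AK119ub1, with a median log2 difference of -0.93. Of these, 6 lie on chromosomes 4 and 7, whose promoter medians of H2AK119ub1 were low at 69.3 and 68.5 CPM, and the part of the chromosome in their difference was not tested. Ndufa4, a subunit of the respiratory chain, had 93.5 and 106.0 CPM of H2AK119ub1 against 340.7 and 402.9 CPM of H3K27ac. Uqcrh, which had 42.0 and 51.8 CPM against 400.3 and 424.7 CPM, shares its window with another gene. Of 15 RNA processing and proteasome genes, 9 were lower and 3 higher, 8 lie on chromosomes 4 and 7, and 5 had H2AK119ub1 above the median of all promoters. Their median H3K27ac, 129.0 CPM, was close to the 126.5 CPM of all promoters. Their median H2AK119ub1 was 63.3 CPM against 107.3 CPM. Ddx5 and Hnrnph3, both lower, also share their windows. Of 27 cell cycle genes, 16 were lower and 5 higher, 7 lie on chromosomes 4 and 7, and 10 had H2AK119ub1 above the median. Kif20a, a kinesin of cytokinesis, had 86.4 and 84.3 CPM of H2AK119ub1 against 375.2 and 388.4 CPM of H3K27ac, and Cdc26, a subunit of the anaphase-promoting complex with a shared window, was lower too. Of 67 Zfp genes tested, 31 were lower, a share near the 45.8% over all promoters, and 9 higher. Their median H2AK119ub1 was 64.4 CPM and their median H3K27ac 98.6 CPM, and 31 of the 68 measured lie on chromosome 7, whose own promoter median of H2AK119ub1 was 68.5 CPM. Zfp52 was lower with 56.8 and 52.3 CPM against 429.1 and 337.3 CPM.

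In the smaller lists, 4 of 8 chemosensory and keratin genes were higher and 2 lower. Krt79 had 240.5 and 182.9 CPM of H2AK119ub1 against 87.4 and 79.9 CPM of H3K27ac. Krt80 was lower with 127.9 and 119.8 CPM against 651.5 and 683.6 CPM, but had only 43.9 CPM in the libraries titled H3K4-me3, and with those it was higher (log2 difference 1.499). Of 7 blood cell genes, 2 were higher and 3 lower. Lcp1, an actin-bundling protein of leukocytes, had 168.0 and 179.9 CPM of H2AK119ub1 against 53.5 and 38.6 CPM of H3K27ac, and Cd14, a lipopolysaccharide coreceptor, 119.3 and 135.6 CPM against 572.6 and 481.8 CPM. Of 5 genes of the Polycomb and BAP1 machinery, Phf19, a partner of Polycomb repressive complex 2, was higher with 222.4 and 208.1 CPM against 49.8 and 57.7 CPM. Bmi1, a subunit of Polycomb repressive complex 1, was lower with 78.3 and 99.6 CPM against 217.7 and 288.6 CPM, and Pcgf2, its paralogue, was lower too. Of the 2 endothelial genes, Egfl7 was higher and Eng was not called (edgeR adjusted p = 0.132). Pcgf2, Egfl7 and Eng were named after their values were seen.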

How the data were processed

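ChIP-seq of WT endosteal stromal cells for 2 marks, with 2 libraries each, was used, grouped by title. Per the file headers, the authors deposited whole-number read counts, not normalised. Each gene has 200 bins of 50 bp, which cover 10 kb around its start. Per the submitters' processing notes, the build was GRCm38, and the tools were bedtools 2.30.0, SAMtools 1.9, Picard 2.25.5, Bowtie2 2.4.5 and cutadapt 1.18, with no settings given. Of isolated runs of bins at 1 count under 6 bins long, 98.3% were 3 bins long, so sums hold each read about 3 times, and depth covers only these windows.

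Promoter counts (2 kb to each side, autosomes) were tested with edgeR 4.0.16 in R 4.3.3 (robust glmQLFit, filterByExpr with a minimum count of 10, library size as the sum of autosomal bins, no further factor, Benjamini-Hochberg threshold 0.05). The test was checked on simulated counts. DESeq2 1.42.0, other scalings, widths and filters, and leaving out each library were alternatives. Replicate numbers were not used to pair the libraries in the main test, and whether they mark pairs is not known. The 2 libraries of a mark differed by more than counting noise, with a chi-square of 2.10 per degree of freedom for H2AK119ub1 and 2.45 for H3K27ac. Median promoter counts were 227 and 215 for H2AK119ub1 and 371 and 472 for H3K27ac. Local enrichment used a pseudocount of 1 CPM per kb, and correlations 1 CPM.

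Genes were named by position from RefSeq (GRCm38.p6), same strand, start within 500 bp, which named 3174 of the 3789. For 296 promoters the 4 kb overlaps that of another gene. Named genes are the 8 of lowest p in each direction with separate libraries, leaving out unnamed and predicted genes, the 8 with the highest smaller rank of both marks, and the 2 of lowest p per list. Of these promoters, 2 are not reported here. Members and lists were chosen with earlier results of these data known.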

Additional observations from a re-analysis of the deposited data

How the results depend on the processing

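The count of promoters higher in H2AK119ub1 fell to 796, with 2226 lower, when libraries were scaled on the outer flanks, and no other planned setting moved either count by over 1.5 times. The 2-fold counts, 1000 and 1240, were 1378 and 710 with promoter-count scaling, 493 and 1872 with outer flanks, and 1134 and 500 at 5 kb. Without 1 library, 1099 to 1241 were higher and 1507 to 1738 lower. The split of calls was 1032 higher and 1965 lower at 1 kb to each side, 1767 and 1244 at 5 kb, 1723 and 1235 with promoter-count scaling, 1481 and 1520 with TMM, and 1440 and 1446 with DESeq2. The replicate number as a block gave 1307 higher and 1737 lower. The deviations of same-numbered libraries had a correlation of -0.02, which cannot show whether they came from the same animals. Of 778 alternative values at the 49 genes the naming rule took, 775 kept direction and call. Most of these genes were chosen for a low p in the main test, and most settings refit the same libraries. The share that kept its call was thus largely set in advance and says little about other promoters. Krt80 reversed to 1.499 with the libraries titled H3K4-me3, Zfp423 to 0.014 at 5 kb to each side, and Pitpnm1 was no longer called with promoter-count scaling (-0.37).

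The rank correlation of -0.05 was -0.14 at 1 kb to each side and 0.083 at 5 kb, so its sign depends on the width. It was 0.059 with the libraries titled H3K4-me3, -0.11 over promoters at or above the median of both marks, -0.45 over those at or above the median of either (a choice that by construction removes promoters low in both), -0.27 relative to the chromosome or to the 20 nearest genes, and -0.062 to -0.035 without 1 library (weakest without H2AK119ub1 replicate 2). The ratio of class 10 to class 1, 1.32, was 1.15 at 1 kb, 1.54 with the libraries titled H3K4-me3, and under 1 between the top and bottom 25% (0.943), relative to the outer flanks (0.873), to the chromosome (0.941) and to the 20 nearest genes (0.919), with 1.25 to 1.41 without 1 library. Promoters high in both numbered 9 in the top 10% of both, 867 above the median, 67 relative to the chromosome, 71 relative to the 20 nearest genes, and 141 to 153 without 1 library. The correlation of local enrichment, -0.09, was -0.13 with a pseudocount of 10 or with flanks of 2 kb, -0.022 with the libraries titled H3K4-me3, and -0.084 to -0.043 without 1 library (again weakest without H2AK119ub1 replicate 2). The difference in the share of counts, H2AK119ub1 minus H3K27ac, was -13.9 percentage points within 400 bp and -20.6 within 2 kb, and -21.3 and -35.9 with the libraries titled H3K4-me3. Regional scaling was chosen after seeing the data, and the cause of these shifts was not tested. The narrow range of H2AK119ub1 and 2 libraries a mark limit what differences can be seen.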

Other observations

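Promoters split by the authors' marks had these levels, with no test of the difference. The 1849 promoters marked UP had medians of 101.6 CPM of H2AK119ub1 and 93.1 CPM of H3K27ac, with a rho of -0.17 between them, and the 1940 marked DOWN had 112.2 CPM of H2AK119ub1 and 156.6 CPM of H3K27ac, with a rho of 0.02.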
